A study of Mus musculus with 6 samples.

Results

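The genes described here encode the proteins that mark, license and fire origins of DNA replication and those that copy DNA at the fork: the origin recognition complex, the MCM helicase and its loaders and activators, the replicative polymerases, the sliding clamp with its loader, RPA, and the enzymes that mature Okazaki fragments. They were chosen by name, 44 in all, with earlier results of these data known. For each gene the brightest probe set carrying its symbol alone was taken. Of the 44 genes, 43 were found among the 22180 genes measured that way. The remaining gene, Rfc4, shares its probe set with Eif4a2 and was left out. All 43 lay above the limit used for dim genes (a mean of 2.48 on the log2 scale), so all 43 entered the comparison of 14787 genes.

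CD4 T cells came from OT II transgenic mice, whose T cell receptor recognises an ovalbumin peptide, and the mice were 12 to 16 weeks old. The low arginine group (3 arrays) was cultured for 72 hours in RPMI-1640 with 10% dialyzed serum holding 1% of the normal arginine (12 uM), and the control group (3 arrays) for 72 hours in the same medium with its full arginine. All cultures held antigen-presenting cells and the peptide, and CD4 cells were purified again before RNA was taken. The description names 6 mice and the labels call the samples biological replicates, without saying which mice gave which array.

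Origins are licensed in G1, when the origin recognition complex, Cdc6 and Cdt1 load MCM rings onto DNA. In S phase the Dbf4-dependent kinase and cyclin-dependent kinases turn loaded rings into active helicases by adding Cdc45 and the GINS complex, while geminin holds Cdt1 in check so that no origin is licensed again. Polymerase alpha and primase start each strand, RFC loads the PCNA clamp, and polymerases delta and epsilon extend. T cells leaving rest make many of these proteins anew, and transcription factors of the E2F family are known to drive a large share of their genes.

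In low arginine 7 of the 43 genes fell and 0 rose (limma, Benjamini-Hochberg adjusted p below 0.05 over all genes tested). That is 16.3% of the members lower, where 6.98% of all genes tested were lower and 5.19% higher. The 7 were Dbf4, Gmnn, Gins2, Rfc5, Rfc3, Pold3 and Rfc2, with falls between 1.52-fold and 2.34-fold. None of the 12 genes of the origin recognition complex and the MCM ring passed (unadjusted p below 0.05 for Orc1, lower, and Orc4, higher). At an unadjusted p below 0.05 there were 20 members lower and 1 higher (Orc4), against 13.9% and 13.3% of all genes. The median change over the 43 genes was -0.42 on the log2 scale, beside 0.01 over all genes tested, and 37 changes were negative. The groups did not overlap for 14 members that were lower (32.6%, against 16.2% of all genes) and for 2 that were higher, Orc4 and Orc5 (against 16% of all genes). These are bulk samples, so fewer cells in S phase and less RNA of these genes per cell cannot be told apart.

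**Figure D1:**
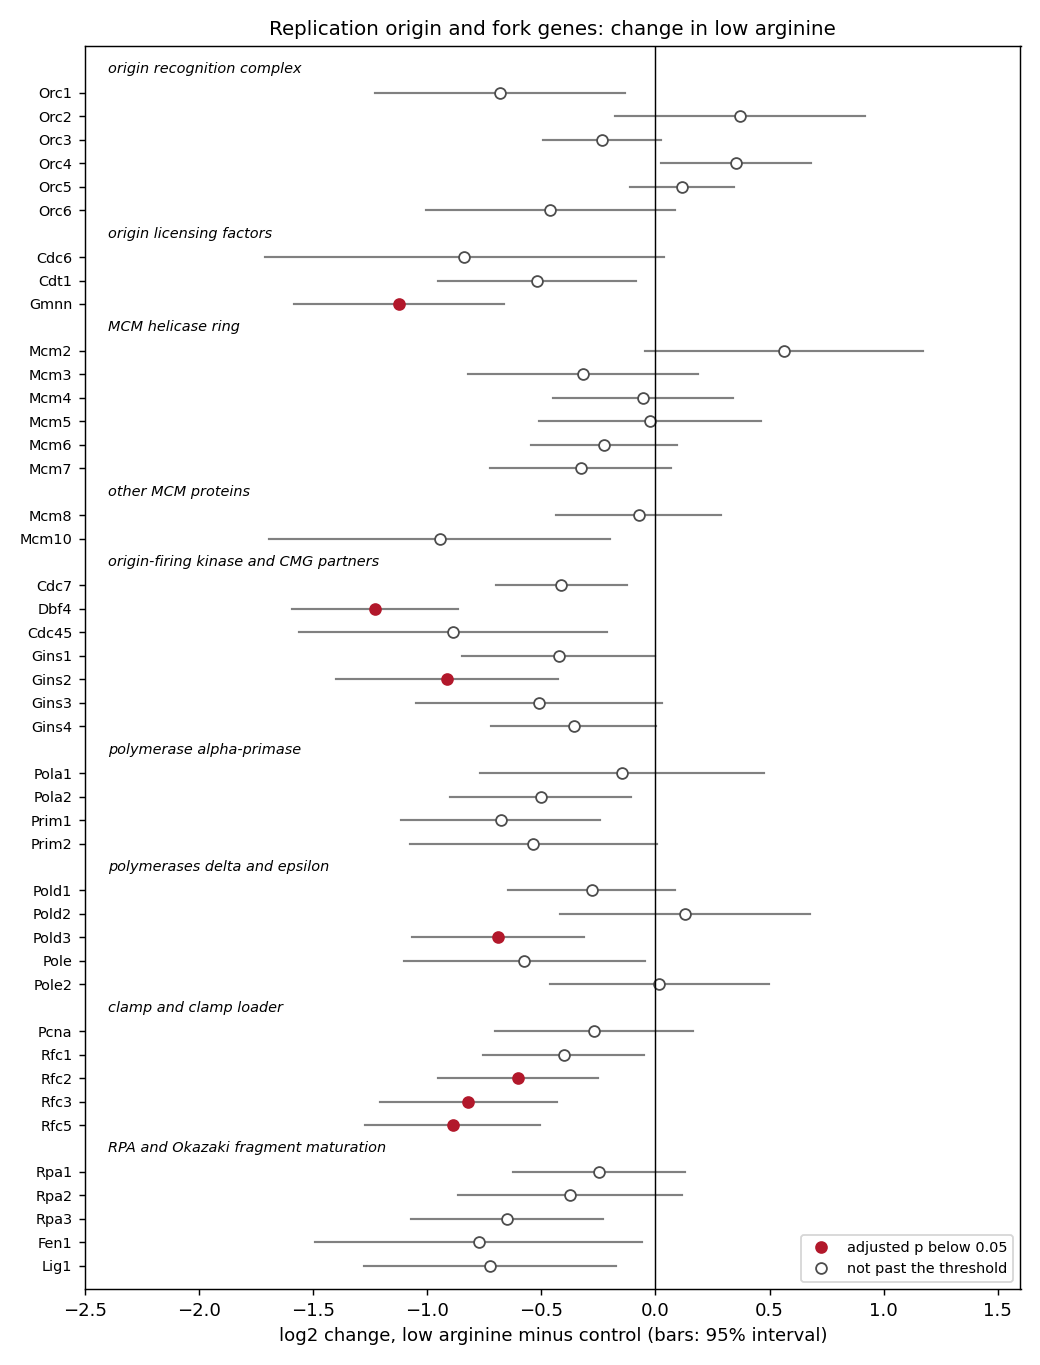
The log2 change of each of the 43 genes (low arginine minus control, horizontal axis) is drawn with its 95% interval from limma, grouped by role down the page. Filled points are the 7 genes past the threshold, from Dbf4 at -1.23 to Rfc2 at -0.60, and the MCM ring lies between -0.33 (Mcm7) and 0.56 (Mcm2).

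A single array often decided whether a member passed. Without low arginine replicate 2 or control replicate 2, Dbf4 alone passed, where 2.35% and 2.29% of all genes tested were lower. Without low arginine replicate 3, Dbf4 and Gmnn passed, where 2.65% of all genes were lower. Without low arginine replicate 1 there were 12 members lower and 0 higher (4.48% of all genes lower). Without control replicate 1 there were 9 lower and 3 higher (Mcm2, Orc2 and Orc4). In that setting 11.5% of all genes were lower, and 1626 of 14787 were higher. Without control replicate 3, 8 were lower (5.33% of all genes lower). Inside each group the same arrays were high or low for most members. Low arginine replicate 1 had the highest value of its group for 40 of the 43 genes (31.1% of all genes tested), and control replicate 1 for 32 (40.1% of all genes). Control replicate 3 had the lowest value of its group for 37 (37.8% of all genes), and low arginine replicate 3 for 31 (35.2%). The median deviation from each gene's mean over the 6 arrays was 0.12, -0.33 and -0.38 on low arginine replicates 1, 2 and 3, against 0.43, 0.21 and -0.02 on control replicates 1, 2 and 3. By this median low arginine replicate 1 lay above control replicate 3, so the groups overlapped. Over all genes tested the same medians lay between -0.02 and 0.01. Within low arginine the median SD of a member was 0.26, where that of all genes tested was 0.12, and within control it was 0.24, where that of all genes was 0.18.

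**Figure D2:**
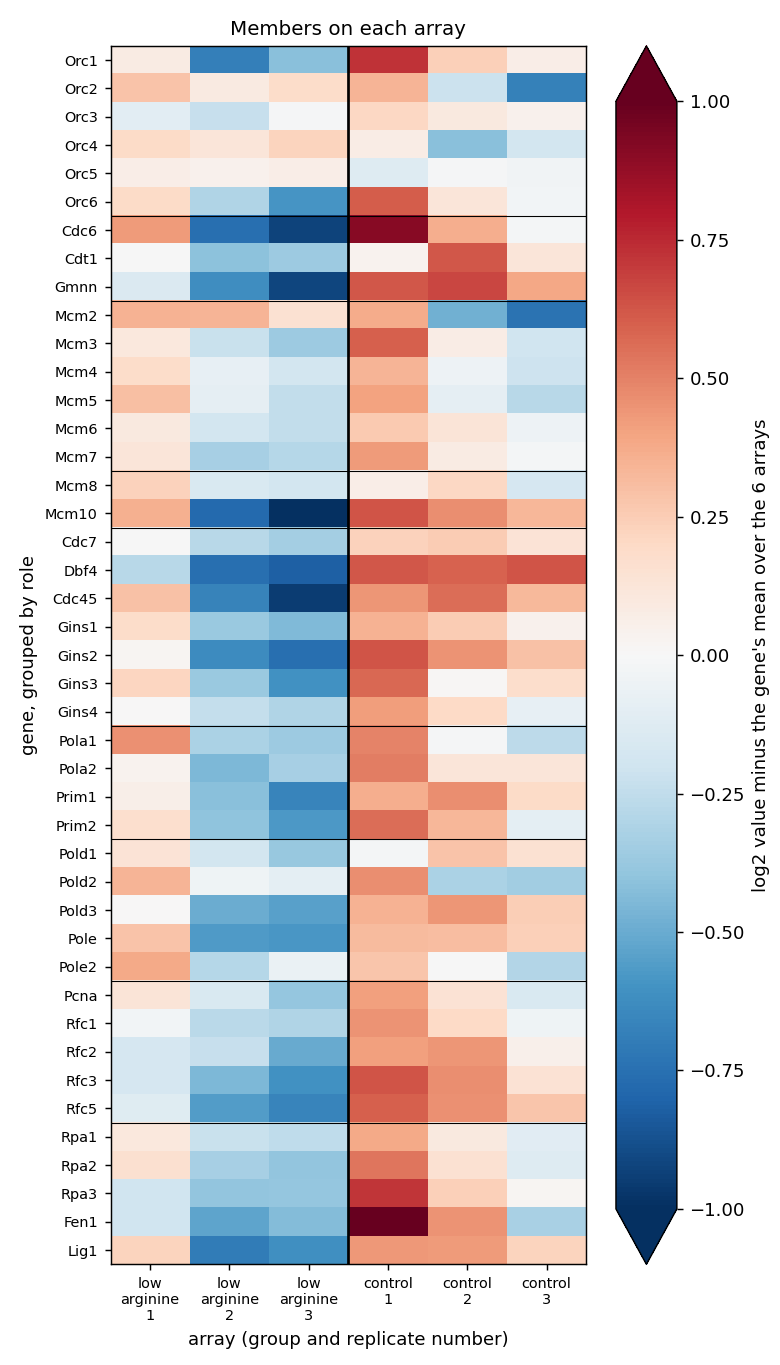
Each row is a member, ordered by role, and each column an array, low arginine left of the black line and control right of it; colour gives the log2 value minus the gene's mean over the 6 arrays, and horizontal lines part the roles. Low arginine replicate 1 is the palest or reddest of its group in most rows, with a median of 0.12, and Dbf4 and Gmnn keep the groups apart on every array.

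Markers of CD4 T cells and of other cell types gave the following values. The 9 measured markers of CD4 T cells averaged 8.86 to 9.09 on the low arginine arrays, against 8.92 to 9.11 on the control arrays, and none of them passed. The 7 measured B cell markers averaged 2.61 to 2.68 in low arginine, against 2.59 to 2.71 in control, 2 of them under the dim limit. The 11 measured markers of dendritic cells and macrophages averaged 2.65 to 2.80 in low arginine, against 2.87 to 2.94 in control, with 5 under the dim limit. Of these 11, the class II gene H2-Ab1 fell by 3.06 on the log2 scale (limma adjusted p = 6.02e-04). Of the other 10, 9 had a higher mean in low arginine and 1 a lower one, with differences of -0.03 to 0.22, and none of the 5 that were tested passed. Without H2-Ab1 the list averaged 2.51 to 2.66 in low arginine, against 2.46 to 2.49 in control. The 6 markers of CD8 T and NK cells averaged 3.70 to 3.82 in low arginine, against 3.74 to 4.08 in control. Of the 6, 2 were under the limit, and the others moved in both directions without passing. Cd8b1 averaged 6.24 in low arginine against 6.90 in control, without overlap (change -0.66, limma adjusted p = 0.0632). Cd8a and Klrd1 both changed by -0.61 (adjusted p = 0.241 and 0.177). Eomes changed by 0.79, without overlap (adjusted p = 0.0779). None of the 6 erythroid markers was analysed here. The part of cells other than CD4 T cells in the results on replication genes was not tested.

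Promoter sequence was not used to choose these genes. RefSeq promoter windows (assembly GRCm38.p6, 250 bases before to 50 after the start) were at hand for 36 of the 44 genes. The words TTTCCCGC, TTTCGCGC, TTTGCCGC and TTTGGCGC, which spell the core to which E2F factors bind, were searched on both strands. At least 1 was present for 16 of the 36 genes (44.4%), against 704 of 27025 genes with a window (2.6%). By role they were found in 4 of 5 MCM ring genes, 2 of 2 licensing factors, 3 of 4 genes of polymerases delta and epsilon and 2 of 6 genes of the origin recognition complex. They were found in 1 gene each of the other roles, out of 2 other MCM genes, 3 genes of polymerase alpha-primase, 4 origin-firing genes, 5 of the clamp and its loader and 5 of RPA and Okazaki fragment maturation. A match of letters is a description and not a bound site. The cell cycle homology words TTTGAA and TTCGAA, known from genes of late cell cycle phases, were present on either strand for 9 of the 36 genes (25%), against 21.7% of all genes. These 9 include all 4 origin-firing genes with a window (Cdc7, Dbf4, Cdc45 and Gins3), 2 of 5 MCM ring genes and 1 each of polymerases delta and epsilon, the clamp and its loader, and RPA and Okazaki fragment maturation. They were present for 2 of the 4 fallen genes with a window, against 7 of the 31 with a window that did not pass. Of the 16 tested genes with an E2F word 2 fell (median change -0.32), and of the 19 without it 2 fell (median change -0.41). Neither difference was tested, and the fallen genes Gmnn, Gins2 and Rfc2 are not among these genes.

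Shown here are the 250 bases before the start for the 4 fallen genes with a window, and for Mcm6, which was added after its value was seen because it holds 3 E2F words and did not pass. Capitals mark E2F words. All 5 lie on the minus strand, and the sequences read 5′ to 3′ towards the gene. The Dbf4 window is chr5:8422717-8422966, that of Rfc5 chr5:117389024-117389273, that of Rfc3 chr5:151651209-151651458, that of Pold3 chr7:100121503-100121752 and that of Mcm6 chr1:128359706-128359955, and each is promoter sequence just upstream of the first exon.
Dbf4: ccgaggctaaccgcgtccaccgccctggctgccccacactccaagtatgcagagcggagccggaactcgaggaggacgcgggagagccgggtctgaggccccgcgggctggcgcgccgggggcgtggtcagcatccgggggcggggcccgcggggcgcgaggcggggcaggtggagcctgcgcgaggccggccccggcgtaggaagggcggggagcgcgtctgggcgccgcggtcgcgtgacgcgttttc
Rfc5: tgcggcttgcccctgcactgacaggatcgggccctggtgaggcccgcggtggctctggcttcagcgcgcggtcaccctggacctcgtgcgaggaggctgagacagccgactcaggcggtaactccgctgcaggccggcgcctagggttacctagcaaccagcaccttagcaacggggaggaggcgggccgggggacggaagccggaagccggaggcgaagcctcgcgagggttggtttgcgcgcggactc
Rfc3: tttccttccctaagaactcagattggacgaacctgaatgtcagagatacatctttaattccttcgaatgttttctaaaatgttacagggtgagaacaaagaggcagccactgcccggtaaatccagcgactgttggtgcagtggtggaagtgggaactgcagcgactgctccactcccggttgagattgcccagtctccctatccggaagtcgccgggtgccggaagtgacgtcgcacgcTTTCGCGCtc
Pold3: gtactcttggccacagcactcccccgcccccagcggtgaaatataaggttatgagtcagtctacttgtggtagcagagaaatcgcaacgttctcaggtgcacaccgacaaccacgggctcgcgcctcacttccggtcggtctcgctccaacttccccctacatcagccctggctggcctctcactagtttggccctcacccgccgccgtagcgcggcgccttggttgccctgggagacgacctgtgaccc
Mcm6: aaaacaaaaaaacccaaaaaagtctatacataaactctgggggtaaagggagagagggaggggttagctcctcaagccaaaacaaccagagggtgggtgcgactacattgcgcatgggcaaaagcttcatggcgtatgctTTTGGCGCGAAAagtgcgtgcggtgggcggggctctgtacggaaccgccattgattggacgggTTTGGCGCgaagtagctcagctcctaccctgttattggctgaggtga
Dbf4 and Rfc5 hold no E2F word here. Rfc3 has one 10 bases before the start and another that begins at base 1 of the transcript, and that of Pold3 begins at base 18 of the transcript, past the end of the sequence shown. In Mcm6 the first 2 words, which start 110 and 106 bases before the gene, overlap on opposite strands, and the third starts 47 bases before it.

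The origin recognition complex, which marks origins and holds Cdc6, showed changes in both directions, none past the threshold. Orc1, the subunit whose level is known to follow the cell cycle, had 4.68, 3.92 and 4.18 (log2 values) on the low arginine arrays, against 5.32, 4.84 and 4.66 on the control arrays. The groups touched, since low arginine replicate 1 lay above control replicate 3, and the difference was -0.68 (limma adjusted p = 0.105). Orc3, the brightest subunit gene, had 7.55, 7.42 and 7.65 in low arginine, against 7.87, 7.76 and 7.70 in control. All its low arginine values lay below the controls, by -0.23 on average (adjusted p = 0.229). Orc2 had 6.73, 6.54 and 6.63 in low arginine, against 6.79, 6.23 and 5.77 in control, and only control replicate 1 exceeded the low arginine arrays. Orc4 had 7.44, 7.37 and 7.47 in low arginine, against 7.32, 6.83 and 7.07 in control, a difference of 0.35 (adjusted p = 0.154). Without control replicate 1, Orc2 and Orc4 passed as higher, with changes of 0.63 (adjusted p = 0.0231) and 0.48 (0.0244). That setting called 3325 genes over all, against 1799 with all 6 arrays. Orc5 changed by 0.12, and Orc6, which is needed for MCM loading, by -0.46.

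Among the licensing factors geminin fell. Gmnn, which binds Cdt1 and blocks relicensing, had 5.08, 4.60 and 4.31 on the low arginine arrays, against 5.85, 5.90 and 5.62 on the control arrays. Every low arginine value lay below every control, with means of 4.67 ± 0.39 and 5.79 ± 0.15 (SD, n = 3 each) and a 2.18-fold fall (limma adjusted p = 0.0133). The call ended without low arginine replicate 2 (adjusted p = 0.0658) or control replicate 2 (0.0652). Cdt1, the factor that geminin binds, had 7.66, 7.25 and 7.29 in low arginine, against 7.70, 8.28 and 7.78 in control. The groups did not overlap, although low arginine replicate 1 and control replicate 1 nearly met, and the change was -0.52 (adjusted p = 0.117, or 0.0469 without control replicate 1). Cdc6, the ATPase that brings MCM rings to the origin, had 7.55, 6.37 and 6.20 in low arginine, against 8.04, 7.49 and 7.11 in control. Low arginine replicate 1 lay inside the control range, and the change of -0.84 did not pass (adjusted p = 0.201) but passed without that array (adjusted p = 0.0428).

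The 6 genes of the MCM ring, the motor of the replicative helicase, did not pass, and the groups overlapped for each of them. Mcm4, the brightest, had 8.97, 8.70 and 8.60 on the low arginine arrays, against 9.12, 8.73 and 8.58 on the control arrays, a change of -0.05 with a 95% interval of -0.45 to 0.34. Mcm5 had 8.75, 8.37 and 8.20 in low arginine, against 8.85, 8.36 and 8.17 in control, a change of -0.02 (interval -0.51 to 0.46). The low arginine and control values of these 2 genes interleaved. Their signs turned under some settings, Mcm5 to 0.17 and Mcm4 to 0.10 without control replicate 1. Mcm3, Mcm6 and Mcm7 changed by -0.32, -0.22 and -0.33, and the lowest bound among their intervals was -0.82, for Mcm3. Mcm2, the ring member with the largest change, went the other way. It had 8.37, 8.36 and 8.17 in low arginine, against 8.39, 7.54 and 7.28 in control. Control replicate 1 was as high as the low arginine arrays, and the other controls lay well below. The change was 0.56 (interval -0.04 to 1.17, adjusted p = 0.217), and 0.89 without control replicate 1 (adjusted p = 0.0033). Without that array 1626 genes over all were called higher, against 767 with all 6 arrays.

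Of the other MCM proteins, Mcm10, which helps to activate the helicase at firing origins, had 6.40, 5.27 and 5.05 on the low arginine arrays, against 6.67, 6.51 and 6.38 on the control arrays. Low arginine replicate 1 stood more than 1 log2 unit above the other low arginine arrays and among the controls. The change of -0.95 did not pass (adjusted p = 0.101), and without that array it was -1.36 (adjusted p = 0.00463). Mcm8, a paralogue known from recombination repair, changed by -0.07 (interval -0.44 to 0.29), a sign that turned without low arginine replicate 3 or control replicate 2.

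Origin firing held the member with the largest change. Dbf4, the regulatory subunit that activates the Cdc7 kinase, had 5.88, 5.41 and 5.34 on the low arginine arrays, against 6.78, 6.74 and 6.79 on the control arrays. The controls lay within 0.1 of each other and far above the low arginine arrays. Means were 5.54 ± 0.30 and 6.77 ± 0.02 (SD, n = 3 each), a 2.34-fold fall (interval of the log2 change -1.59 to -0.87, limma adjusted p = 0.00474). This call was kept without any single array (adjusted p = 0.00173 to 0.0322). Its catalytic partner Cdc7 had 6.67, 6.39 and 6.33 in low arginine, against 6.90, 6.92 and 6.81 in control. These groups did not overlap either, but the change was -0.41 (adjusted p = 0.0717).

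Gins2, a subunit of the GINS complex that joins MCM and Cdc45 in the active helicase, fell. It had 6.07, 5.42 and 5.30 on the low arginine arrays, against 6.68, 6.51 and 6.35 on the control arrays. All low arginine values were below all controls, with a 1.88-fold fall (adjusted p = 0.0309) that did not pass without low arginine replicate 2 (adjusted p = 0.12), low arginine replicate 3 (0.112) or control replicate 2 (0.106). Gins4, the brightest gene of this group, had 7.40, 7.15 and 7.09 in low arginine, against 7.81, 7.59 and 7.32 in control, and low arginine replicate 1 reached into the control range (change -0.36, adjusted p = 0.187). Gins1 and Gins3 changed by -0.42 and -0.51. Cdc45 had 6.53, 5.57 and 5.29 in low arginine, against 6.69, 6.80 and 6.57 in control. Low arginine replicate 1 came within 0.1 of the lowest control, and the change was -0.89 (adjusted p = 0.0925), or -1.25 without that array (0.00632).

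**Figure D3:**
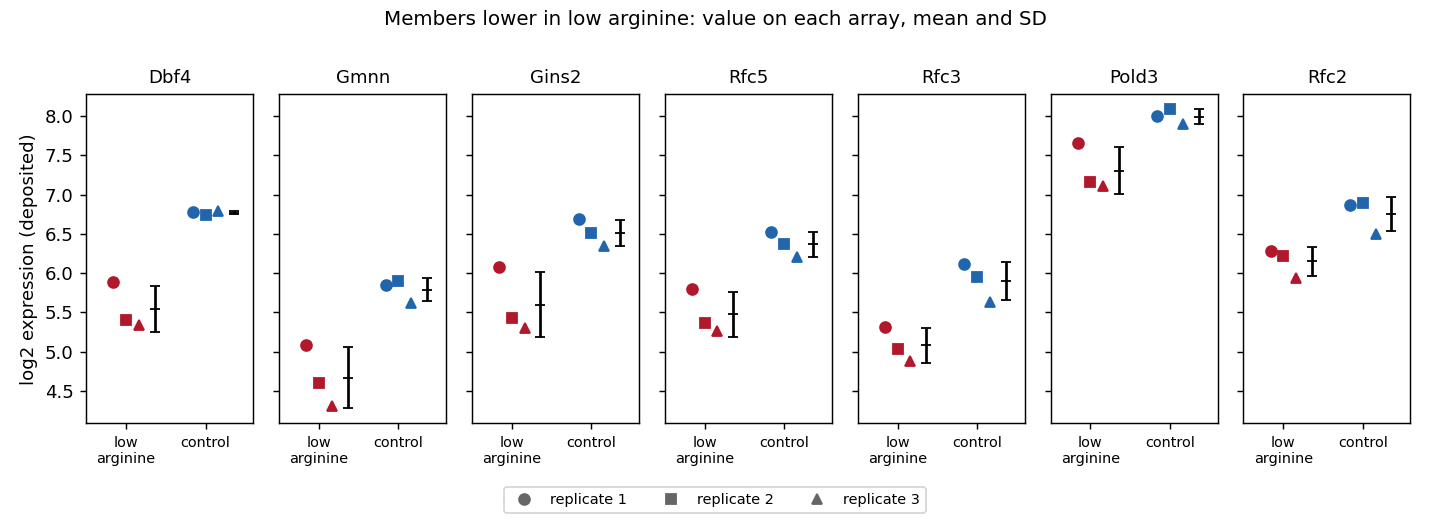
Points give the deposited log2 expression of the 7 genes past the threshold on each array, low arginine left of control in every panel, with replicate numbers as shapes, and black bars give mean and SD (n = 3). In each panel all low arginine points lie under all control points, and the circle of low arginine replicate 1 is the uppermost of its group (5.88 for Dbf4).

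Polymerase alpha and primase, which lay down the RNA-DNA primers, had no gene past the threshold. Prim1, the catalytic primase subunit, had 7.48, 7.01 and 6.77 on the low arginine arrays, against 7.79, 7.89 and 7.62 on the control arrays. The groups did not overlap and the change was -0.68 (limma adjusted p = 0.0549, or 0.0216 without low arginine replicate 1). Pola2, the regulatory subunit and the brightest of these genes, had 7.69, 7.21 and 7.33 in low arginine, against 8.18, 7.78 and 7.78 in control. It was lower on every low arginine array, by -0.50 on average (adjusted p = 0.102). Prim2 changed by -0.54 (adjusted p = 0.188). Pola1, the catalytic polymerase subunit, changed by -0.15 with an interval of -0.77 to 0.47, and by 0.06 without control replicate 1.

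Of polymerases delta and epsilon, which extend the lagging and leading strands, 1 of 5 genes fell. Pold3, an accessory subunit of polymerase delta and the brightest of these genes, had 7.65, 7.16 and 7.10 on the low arginine arrays, against 7.998, 8.09 and 7.89 on the control arrays. The groups stood apart, with means of 7.30 ± 0.30 and 7.99 ± 0.10 (SD, n = 3 each) and a 1.61-fold fall (adjusted p = 0.0338). The call ended without low arginine replicate 2 or 3 or control replicate 2 or 3 (adjusted p = 0.0583 to 0.131). The catalytic Pold1 and the small subunit Pold2 changed by -0.28 (interval -0.64 to 0.08) and 0.13 (interval -0.42 to 0.68), Pold2 turning to -0.01 without control replicate 3 and to -0.005 without low arginine replicate 1. Pole, the catalytic subunit of polymerase epsilon, had 7.35, 6.50 and 6.48 in low arginine, against 7.38, 7.37 and 7.30 in control. Low arginine replicate 1 sat among the controls and the other 2 arrays far below them, and the change was -0.58 (adjusted p = 0.149), or -0.86 without replicate 1 of low arginine (adjusted p = 0.0111). The other probe set of Pole lay near the dim limit and changed by -0.06. Pole2 changed by 0.02 (interval -0.46 to 0.50), and its sign turned without low arginine replicate 1 (-0.17) or control replicate 3 (-0.13).

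The loader of the sliding clamp held 3 of the 7 fallen genes. Rfc5 had 5.80, 5.36 and 5.26 on the low arginine arrays, against 6.52, 6.37 and 6.20 on the control arrays, a 1.85-fold fall (limma adjusted p = 0.0153). Rfc3 had 5.32, 5.04 and 4.88 in low arginine, against 6.12, 5.95 and 5.63 in control, a 1.77-fold fall (adjusted p = 0.0209). Rfc2 had 6.28, 6.22 and 5.94 in low arginine, against 6.86, 6.89 and 6.50 in control, a 1.52-fold fall (adjusted p = 0.0406). In all 3, which encode small subunits of the pentameric loader, every low arginine array was below every control array. The calls of Rfc3 and Rfc5 ended without low arginine replicate 2 or 3 or control replicate 2 (adjusted p = 0.0676 to 0.0896). That of Rfc2 ended without these and without low arginine replicate 1 (adjusted p = 0.0762 to 0.146). Rfc1, the large subunit, had 6.95, 6.71 and 6.68 in low arginine, against 7.43, 7.18 and 6.94 in control. Only low arginine replicate 1 reached the lowest control, and the change was -0.40 (adjusted p = 0.134). The clamp itself, Pcna, had 9.69, 9.41 and 9.18 in low arginine, against 9.97, 9.71 and 9.40 in control. Its groups overlapped, and the change was -0.27 with an interval of -0.70 to 0.16 (adjusted p = 0.421).

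RPA, which coats single-stranded DNA, and the enzymes that join Okazaki fragments had no gene past the threshold, though all 5 changes were negative. Rpa1, the large DNA-binding subunit and the brightest, had 7.89, 7.57 and 7.53 on the low arginine arrays, against 8.17, 7.89 and 7.68 on the control arrays (change -0.25, adjusted p = 0.394). Rpa3 had 6.84, 6.64 and 6.65 in low arginine, against 7.75, 7.27 and 7.06 in control. The groups of Rpa3 did not overlap, and its change of -0.65 had an adjusted p of 0.0567 (past the threshold without control replicate 1 or 3), while its dimmer probe set changed by -0.28. Rpa2 changed by -0.37. Lig1, the ligase that seals the fragments, had 7.54, 6.61 and 6.70 in low arginine, against 7.75, 7.74 and 7.54 in control, and low arginine replicate 1 lay level with control replicate 3 (change -0.73, adjusted p = 0.0925, or 0.00923 without low arginine replicate 1). Fen1, the flap nuclease, had the largest change of this role. It had 4.03, 3.70 and 3.80 in low arginine, against 5.27, 4.68 and 3.90 in control. Control replicates 1 and 2 stood above the other arrays and control replicate 3 did not, the difference was -0.77 (adjusted p = 0.152, or 0.0243 without control replicate 3), and its other probe set changed by -0.18.

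Proteins that work as partners were set against each other. For 11 pairs, put together with the changes already known, the difference of the log2 values of the partners was taken on each array, and an exact permutation test over the 6 arrays was run. The groups did not overlap for 8 of the 11 pairs, a description of pairs so chosen. The share among other pairs of genes was not taken. Of all single genes tested, 16.2% were lower and 16% higher without overlap. With 3 arrays against 3 the smallest two-sided p this test can give is 0.1, and each of the 8 had that p (Benjamini-Hochberg adjusted over the 11 pairs, 0.138). Dbf4 minus Cdc7 was -0.79, -0.98 and -0.997 on the low arginine arrays, against -0.12, -0.18 and -0.02 on the control arrays. Both groups were tight here, and their means differed by 0.82. Orc1 minus Orc2 was -2.05, -2.62 and -2.45 in low arginine, against -1.47, -1.39 and -1.11 in control. Mcm2 minus Mcm5 was -0.39, -0.0037 and -0.03 in low arginine, against -0.47, -0.82 and -0.89 in control, so that low arginine replicate 1 and control replicate 1 came closest. The difference Pole2 minus Pole was -0.59, -0.41 and -0.18 in low arginine, against -0.73, -1.002 and -1.22 in control. The other pairs without overlap shifted by -0.60 (Gmnn minus Cdt1), -0.49 (Rfc5 minus Rfc1), -0.41 (Pold3 minus Pold1) and -0.40 (Rpa3 minus Rpa1). Gins2 minus Cdc45 shifted by -0.03, Prim1 minus Prim2 by -0.14 and Pola2 minus Pola1 by -0.35, and their groups overlapped.

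**Figure D4:**
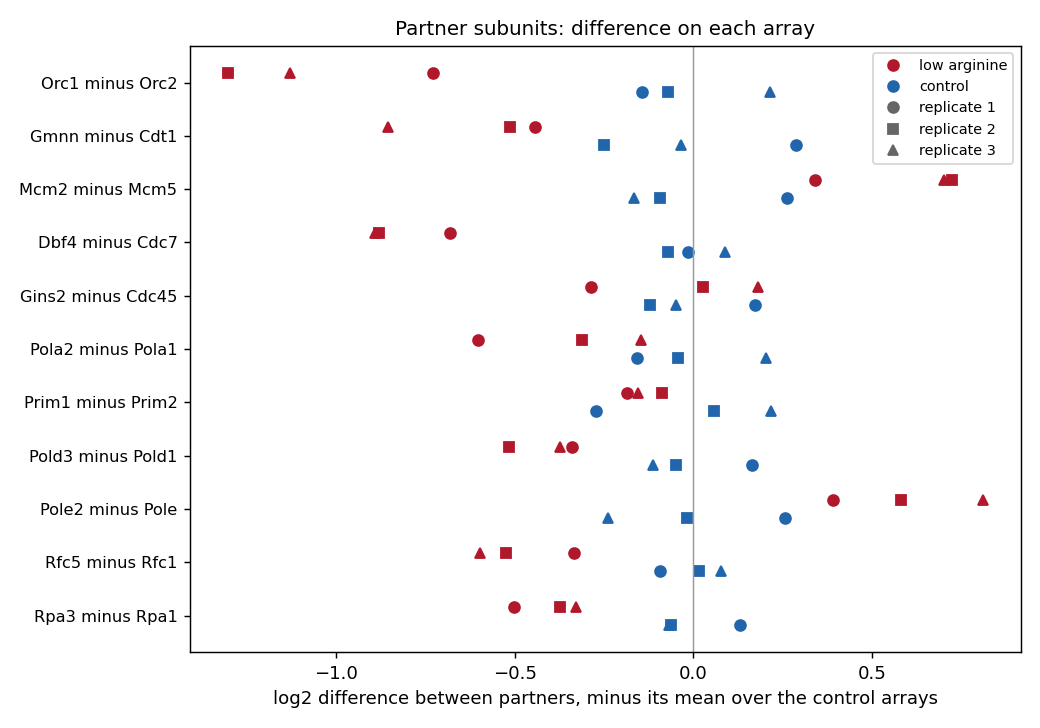
For each of the 11 pairs the log2 difference between partners on each array is drawn after subtracting its mean over the control arrays, low arginine (red) above control (blue) in each row, with replicate numbers as shapes. In the Dbf4 minus Cdc7 row the group means differ by 0.82, while in the Gins2 minus Cdc45 row the groups mix.

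Other genes of replication, here and among those that supply deoxynucleotides, were listed for their function, with earlier results of these data known. Of 32 measured genes that act at origins and forks beside the members, 6 fell and 0 rose by limma (unadjusted p below 0.05 for 2 higher and 13 lower genes), with a median change of -0.44. The 6 make 18.8% of the list, against 6.98% of all genes tested that fell and 5.19% that rose (13.9% and 13.3% at an unadjusted p below 0.05). Pclaf, which binds PCNA, had 6.32, 5.44 and 4.82 on the low arginine arrays, against 7.71, 7.16 and 6.75 on the control arrays, a 3.21-fold fall (adjusted p = 0.0309). Top2a, the topoisomerase that untangles replicated DNA, had 8.81, 7.67 and 7.20 in low arginine, against 9.41, 9.65 and 9.56 in control (adjusted p = 0.0271). Ticrr, which brings cyclin-dependent kinase control to origin firing, had 6.84, 5.71 and 5.66 in low arginine, against 7.64, 7.75 and 7.41 in control (adjusted p = 0.0192). In these 3 genes low arginine replicate 1 was the highest of its group, still below every control. Chaf1a, a histone chaperone of the fork, fell 1.93-fold, Atad5, which unloads PCNA, 1.72-fold, and Topbp1, which acts with Ticrr, 1.56-fold (adjusted p = 0.0458, 0.0365 and 0.0275). None of the 32 passed as lower without low arginine replicate 2 or 3 or control replicate 2 (2.35%, 2.65% and 2.29% of all genes tested were lower). Without low arginine replicate 1, 11 passed as lower, where 4.48% of all genes tested did.

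Of 9 measured genes that supply deoxynucleotides, 3 fell and 0 rose by limma (unadjusted p below 0.05 for 1 higher gene and 5 lower ones). The 3 make 33.3% of the list, beside the same 6.98% of all genes tested that fell and 5.19% that rose. At an unadjusted p below 0.05 the shares of all genes were 13.9% lower and 13.3% higher. The median change of the list was -0.45, with 7 changes negative and 2 positive. Rrm2 had the largest change, -1.46 without overlap, and did not pass (limma adjusted p = 0.0739). The larger of the positive changes was that of Nme1, 0.92 (limma adjusted p = 0.347). Tk1, the thymidine kinase of the salvage path, had 7.26, 6.42 and 6.11 on the low arginine arrays, against 8.18, 7.92 and 7.84 on the control arrays (adjusted p = 0.0197). Rrm1, the large subunit of ribonucleotide reductase, had 8.59, 7.85 and 7.68 in low arginine, against 9.39, 9.01 and 8.80 in control (adjusted p = 0.0399). Dck, the deoxycytidine kinase, had 6.99, 6.41 and 6.24 in low arginine, against 7.50, 7.54 and 7.53 in control (adjusted p = 0.0183). The groups of Tk1, Rrm1 and Dck did not overlap, and their means differed by 2.61-fold, 2.03-fold and 1.96-fold. None of the 3 passed without low arginine replicate 2 or 3 or control replicate 2 (2.35%, 2.65% and 2.29% of all genes tested were lower).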

How the data were processed

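The deposited table held log2 expression values per probe set of 1-colour Affymetrix whole-transcript arrays, normalised between arrays by the authors. The oligo package stands in the submitters' processing notes, with no version; how background was corrected, how values were scaled and which log base was used is not given in the sources used here, and base 2 was taken because values ran from 0.956 to 12.41. Once sorted, the 6 arrays differed by no more than 0.199 at any rank. No detection calls or scanner signals were used, and the number of arrays limits the precision.

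Of 41345 probe sets, 23521 carried 1 gene symbol. The brightest by mean over the arrays stood for its gene, and the dimmest 7393 of 22180 genes were left out. The comparison of groups used limma 3.58.1 (R 4.3.3), two-sided, with group as the sole term, 4 residual degrees of freedom and a prior of 3.69, with Benjamini-Hochberg adjustment over 14787 genes and a threshold of 0.05. The limma p-values rest on the spread between these arrays, moderated by the prior over all genes tested. Which mice that spread covers is not given. Pair differences used exact permutation (scipy 1.17.1), and figures matplotlib 3.10.9. Members, lists and tests were chosen with earlier results of these data known. Values on all arrays are given for members past the threshold and, in each role, for its largest change and its brightest gene; further genes given array by array were picked with their values known. Alternatives covered scaling, filter, probe set rule, prior, array weights, a replicate block and the loss of each array in turn.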

Additional observations from a re-analysis of the deposited data

How the results depend on the processing

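The 7 members were called with quantile normalization (6.51% of all genes tested were lower) and with arrays centred on the median (6.7%) or the 75th percentile (6.47%). They were also called with no dim filter (4.52%), with the mean of probe sets (7.02%) and with a trended and robust prior (6.53%). With a dim share of 0.5 left out, 8 members were called, the 7 among them, where 9.51% of all genes tested were lower. With array weights, which gave control replicate 2 a weight of 5.19 and control replicate 1 one of 0.239, 24 members were lower and 3 higher, the all-gene count was 5514 (2737 lower, 2777 higher), the other origin and fork genes had 16 falls and 4 rises, and deoxynucleotide supply 5 and 1. Leaving out 1 array at a time gave 1 to 12 members lower and 0 to 3 higher, a member median of -0.62 to -0.33, and 500 to 3325 genes over all (338 to 1699 lower, 161 to 1626 higher), with 0 to 11 falls and 0 to 2 rises among the other origin and fork genes and 0 to 4 and 0 to 1 in deoxynucleotide supply. The cause was not tested.

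Arrays of the same replicate number had correlated deviations from their group means of 0.12, 0.06 and 0.14 over all genes tested, and each array correlated best with its own number, which is a hint from the data and not the design. With the replicate number as a block, 12 members were lower, the 7 among them, and 0 higher, where 6.33% of all genes tested were lower (936). In that fit 14 of the other origin and fork genes were lower, and 1568 genes passed in either direction.

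Among members that did not pass, the sign turned for Mcm4 (0.0142 with array weights, -0.17 to 0.10 without 1 array), Mcm5 (3e-04 after quantile normalization, 0.0029 centred on the 75th percentile, 0.0603 with array weights, -0.18 to 0.17 without 1 array), Pole2 (-0.008 with array weights, -0.17 to 0.16 without 1 array), Mcm8 (-0.21 to 0.0127), Pola1 (-0.41 to 0.0628) and Pold2 (-0.0104 to 0.40 without 1 array).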

Other observations

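The probe set shared by Rfc4 and Eif4a2, which cannot tell the loader subunit from the translation factor, had 7.41, 6.96 and 6.81 on the low arginine arrays, against 7.71, 7.62 and 7.31 on the control arrays. A probe set shared by Mcm7 and the microRNA gene Mir25 within it averaged 4.37 in low arginine and 4.40 in control, and one shared with Mir93 averaged 2.35 in low arginine and 2.20 in control, the last under the dim limit.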
